A study of Mus musculus with 20 samples.

Results

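Of 20 mouse kidneys in the series, 10 came from animals given both cisplatin and 7-hydroxycoumarin-β-D-glucuronide (7-HCG), and 3 of those 10 held little mRNA of the metallothionein gene Mt2. These 3 low-Mt2 7-HCG kidneys, replicates 1 and 3 of the 15 mg/kg group and replicate 1 of the 30 mg/kg group, were set beside the 5 control kidneys to describe what still differed where an injury-responsive gene was low. They were chosen by a threshold of 80 CPM (counts scaled to the library total) for Mt2. Their values were 54.8, 44.2 and 48.7 CPM, and the next 7-HCG kidney above the threshold, 30 mg/kg replicate 7, stood at 150 CPM. The other 7 7-HCG kidneys reached 631 CPM, cisplatin kidneys 286 to 622 CPM and control kidneys 13.5 to 27.0 CPM. Because a measured value picked these 3 kidneys, they are described below without a test, and Mt2 and its neighbour Mt1 are not among the results.

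All animals were male C57BL/6J mice, an inbred laboratory strain, aged 6 to 8 weeks. The 7-HCG animals swallowed 15 or 30 mg/kg of the compound on each of 5 days, and on day 3 they received 10 mg/kg cisplatin into the peritoneum. Cisplatin animals took buffer by mouth with the same injection, and control animals took buffer with saline. Whole kidneys were removed 72 h after the injection, with 5 animals in each of the 4 groups. No group received 7-HCG without cisplatin, so any difference between 7-HCG and control kidneys combines both agents and cannot be divided between them.

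Cisplatin is a platinum chemotherapy drug that is taken up by the proximal tubule, the nephron segment that reabsorbs most of the filtered sugar, phosphate, amino acids and protein. These cells burn fatty acids in dense mitochondria, and part of the respiratory chain is encoded by the mitochondrial genome itself. Injured tubule cells typically lose transporter mRNA and gain mRNA for injury markers such as KIM-1 and NGAL. Bulk tissue was measured, so fewer cells of a type and less RNA per cell cannot be told apart.

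Values below are CPM after TMM scaling, which corrects library sizes for their composition, and the 3 low-Mt2 kidneys are given in the order 15 mg/kg replicate 1, 15 mg/kg replicate 3 and 30 mg/kg replicate 1. A gene lay above control when all 3 exceeded all 5 controls, and below control when all 3 were under all 5. Tests were made only between groups that the labels give: all 10 7-HCG kidneys against the 5 controls, by edgeR's quasi-likelihood test with Benjamini-Hochberg adjustment over 14858 genes. "Rose" and "fell" refer to that test at an adjusted p below 0.05. Libraries held 34726604 to 41638560 counts in the low-Mt2 kidneys and 25085860 to 34003338 in control, so that 3 counts came to at most 0.125 CPM in any of these 8 libraries. Controls 2 and 5 carried much adipose-marker mRNA, with a mean log2 level of the adipose list of 5.4 and 7.36, against 1.88 to 3.05 in the low-Mt2 kidneys and 1.76 to 2.81 in the other controls. Its part in the results was not tested, and gene group counts without those controls are given where they moved by over 1.5 times. Against the other 3 controls alone, which fewer libraries make easier to clear, 24.8% of all genes lay above and 26.0% below. The labelled comparison holds these same 3 kidneys and the same controls, so it is not independent of the counts above and below control.

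The working name of spared kidneys held in part: the classical tubular injury markers were under most other 7-HCG kidneys, but not all were at the control level. Havcr1, which encodes KIM-1, stood at 30.4, 4.96 and 7.74 CPM in the low-Mt2 kidneys, against 0.998, 5.8, 0.691, 2.63 and 3.61 CPM in control. It ranged from 25.7 to 220 CPM in the other 7-HCG kidneys, with a median of 110, and from 3.88 to 73.0 CPM in cisplatin kidneys. The 15 mg/kg replicate 1 and 30 mg/kg replicate 1 stood above every control, and 15 mg/kg replicate 3 was exceeded by control 2 alone. Lcn2, which encodes NGAL, was at 40.4, 9.83 and 13.3 CPM in the low-Mt2 kidneys and at 10.3, 44.4, 22.6, 5.04 and 8.58 CPM in control. All 3 values lay inside the control range, which controls 2 and 5 set at its upper end; 15 mg/kg replicate 1 and 30 mg/kg replicate 1 exceeded the other 3 controls. The other 7-HCG kidneys held 156 to 837 CPM and cisplatin kidneys 243 to 457 CPM. Krt20, a keratin of injured tubule cells, gave 3.89, 0.465 and 0.187 CPM in the low-Mt2 kidneys and 0.0957 to 9.04 CPM in control, again with overlap. Controls 2 and 5, at 9.04 and 2.24 CPM, again set the upper end. Both 15 mg/kg replicates exceeded the other 3 controls, at 0.0957 to 0.272 CPM, and 30 mg/kg replicate 1 lay among them. In the labelled comparison, which includes the other 7 kidneys, Havcr1 rose by 4.96 ± 1.05 on the log2 scale (± SE throughout, adjusted p = 0.00103), Lcn2 by 4.12 ± 0.99 (adjusted p = 0.0025) and Krt20 by 5.38 ± 1.62 (adjusted p = 0.0111).

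Other injury genes remained outside the control range. Fgg, which encodes the fibrinogen gamma chain (chromosome 3, 83007724 to 83015049, GRCm38), stood at 81.9, 21.9 and 25.7 CPM in the low-Mt2 kidneys, against 3.41, 6.01, 2.27, 5.98 and 5.39 CPM in control. Each of the 3 was above every control and below every one of the other 7-HCG kidneys, which held 148 to 747 CPM. Fga, for the alpha chain, behaved alike, with 118, 28.8 and 50.3 CPM in the low-Mt2 kidneys and 5.48 to 12.0 CPM in control. Fgb, for the beta chain, was low, at 8.74, 1.57 and 2.33 CPM in the low-Mt2 kidneys and 0.166 to 0.718 CPM in control. Clu, which encodes the chaperone clusterin, gave 513, 446 and 453 CPM in the low-Mt2 kidneys and 66.3 to 237 CPM in control. All 4 of these genes rose in the labelled comparison, Fgg by 6.09 ± 1.02 (adjusted p = 0.00018) and Clu by 2.84 ± 0.49 (adjusted p = 0.000167).

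Over the injury list as a whole, 5 of 31 tested genes lay above control in the low-Mt2 kidneys and 3 below, and 23 overlapped. Over all 14858 genes 20.9% lay above and 20.7% below, beside 16.1% and 9.68% of the injury list. In the labelled comparison 14 of the 31 rose and 3 fell, beside 24.3% of all genes that rose and 24.8% that fell. The mean log2 level of the list was 4.62, 3.63 and 3.84 in the low-Mt2 kidneys, 5.12 to 6.73 in the other 7-HCG kidneys, 5.41 to 5.75 in cisplatin kidneys and 3.54 to 4.74 in control. All 3 lay under every cisplatin kidney. The upper end of the control range came from controls 2 and 5, at 4.74 and 4.26, and 15 mg/kg replicate 1 and 30 mg/kg replicate 1 lay above the other 3 controls, at 3.54 to 3.64. Without controls 2 and 5, 9 of the 31 genes lay above and 4 below, and 15 rose and none fell. The difference from the other 7-HCG kidneys is a description, since Mt2 divided them.

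**Figure D1:**
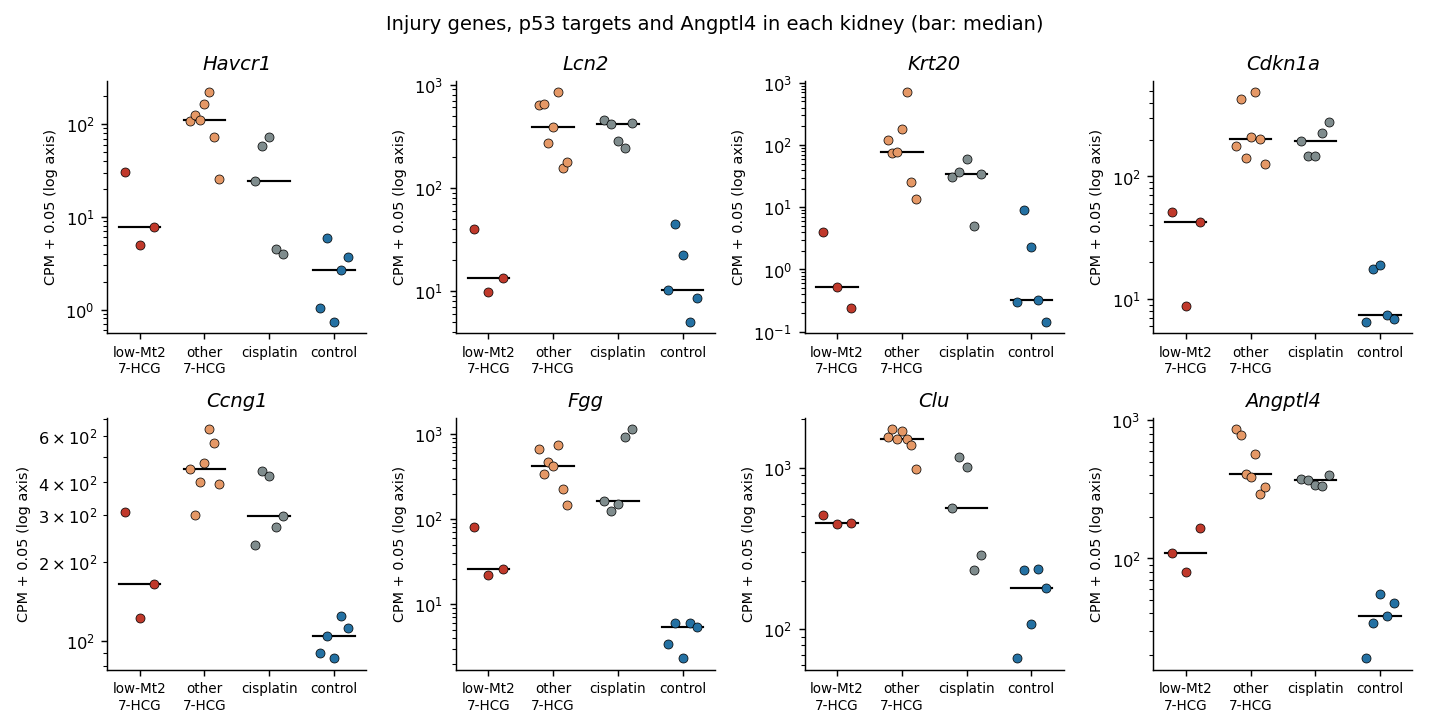
CPM plus 0.05 on log axes for 8 genes in each kidney, by set, with medians as bars. Lcn2 and Krt20 of the 3 low-Mt2 7-HCG kidneys lie within the range of the 5 controls and Havcr1 overlaps it, while Fgg, Clu and Angptl4 lie above all of them.

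Targets of p53, the transcription factor that DNA damage activates, also differed from gene to gene. Of 36 tested targets 4 (11.1%) lay above control in the low-Mt2 kidneys and 3 (8.33%) below, shares under those of all genes, while 17 rose and 2 fell in the labelled comparison. When controls 2 and 5 were left out, 8 lay above and 5 below, and 15 rose and none fell. Cdkn1a, for the cell cycle inhibitor p21, stood at 51.4, 8.72 and 42.4 CPM in the low-Mt2 kidneys and at 6.53, 17.7, 18.8, 7.43 and 6.92 CPM in control. Of the 3 kidneys, 15 mg/kg replicate 3 was exceeded by controls 2 and 5 alone and the other pair lay above every control, and all were under the 126 to 483 CPM of the other 7-HCG kidneys. Ccng1, for cyclin G1, read 308, 122 and 165 CPM in the low-Mt2 kidneys and 85.7 to 124 CPM in control, and again only replicate 3 overlapped. Mdm2, for the ubiquitin ligase that degrades p53, gave 28.2, 16.8 and 12.5 CPM in the low-Mt2 kidneys and 20.4 to 30.4 CPM in control, and did not pass the labelled test (adjusted p = 0.0749), though it did at 30 mg/kg alone and without the 3 low-Mt2 kidneys. Bax, for a mitochondrial pore protein of apoptosis, gave 41.2, 36.3 and 36.3 CPM in the low-Mt2 kidneys and 24.1 to 37.6 CPM in control, and rose by 0.78 ± 0.21 (adjusted p = 0.00513), a call lost with library totals as the only scaling, at 30 mg/kg alone, without controls 2 and 5, and with the length and GC trend removed. Above control were Zmat3, for an RNA-binding p53 target, with 19.4, 14.7 and 19.5 CPM against 9.87 to 12.7 CPM, and Dcxr, for a sugar reductase, with 240, 304 and 372 CPM against 63.2 to 153 CPM. Sesn2, for a stress sensor, cleared the controls narrowly, with 57.9, 43.2 and 70.2 CPM against 37.6 to 42.0 CPM.

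Some genes that answer to glucocorticoid and fasting signals lay above control. Fkbp5, which encodes a chaperone of the glucocorticoid receptor, stood at 92.8, 64.0 and 79.5 CPM in the low-Mt2 kidneys, against 21.2, 23.7, 23.5, 33.8 and 28.9 CPM in control. It was at 112 to 445 CPM in the other 7-HCG kidneys and 91.6 to 265 CPM in cisplatin kidneys, and rose by 2.58 ± 0.38 in the labelled comparison (adjusted p = 4.55e-05). Angptl4, for a secreted inhibitor of lipoprotein lipase, gave 110, 80.4 and 166 CPM in the low-Mt2 kidneys and 18.9 to 55.2 CPM in control, and rose by 3.35 ± 0.50 (adjusted p = 5.56e-05). Over the 13 tested glucocorticoid-responsive genes 3 (23.1%) lay above control, near the share of all genes, and none below, with 7 that rose and none that fell. Above control were 6 without controls 2 and 5, and 5 with the length and GC trend removed. The low-Mt2 values of Fkbp5 and Angptl4 were under those of all other 7-HCG kidneys, which held 295 to 863 CPM of Angptl4. The clock gene Per1 was at 52.5, 44.8 and 61.0 CPM in the low-Mt2 kidneys and 25.8 to 42.7 CPM in control, without passing the labelled test (adjusted p = 0.111), which it did in a fit of control and 7-HCG libraries alone and with the length and GC trend removed. Dbp, a clock output gene, was at 35.0, 74.3 and 72.0 CPM in the low-Mt2 kidneys, 6.33 to 21.5 CPM in the other 7-HCG kidneys and 12.9 to 54.5 CPM in control. It did not pass the labelled test (adjusted p = 0.655), and was called lower without the 3 low-Mt2 kidneys. Nr1d1, for the clock repressor REV-ERBα, overlapped control at 13.8, 30.9 and 22.5 CPM against 21.0 to 37.0 CPM. It did not pass the labelled test (adjusted p = 0.0866), but was called lower under several alternatives, among them library totals as the only scaling. Of 19 clock genes, 4 (21.1%) lay above control and 4 (21.1%) below, near the shares of all genes. Among immediate early genes, Fos read 2.25, 0.129 and 0.583 CPM and Atf3 5.99, 1.39 and 4.99 CPM in the low-Mt2 kidneys, both overlapping control at 1.12 to 4.97 and 2.2 to 7.95 CPM. Atf3 passed the labelled test narrowly (1.5 ± 0.59, adjusted p = 0.0431) and lost that call under many alternatives.

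A large part of the transcriptome did not overlap control. In the low-Mt2 kidneys 3111 genes lay above and 3073 below control, together 41.6% of the genes tested. The gap between the nearest libraries of the 2 sets, on the log2(CPM + 0.5) scale, exceeded 2-fold for 76 genes above (0.512%) and 128 below (0.861%). Without 15 mg/kg replicate 1 these 204 genes became 575, and without control 7 they became 345, though leaving out a library can only keep or raise the count. In the labelled comparison 3611 genes rose and 3678 fell, 49.1% of all. With library totals as the only scaling 1608 rose and 2459 fell, and without controls 2 and 5 2374 rose and 2212 fell.

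The other kidneys were set beside the same 5 controls. All 7 other 7-HCG kidneys lay above every control for 2149 genes (14.5%) and below for 1913 (12.9%), and all 5 cisplatin kidneys above for 874 (5.88%) and below for 671 (4.52%). These sets differ in size from the 3 low-Mt2 kidneys and share their controls, so the counts stand side by side only. On the first principal component, which held 37.5% of the variance, the low-Mt2 kidneys scored 21.2, 29.9 and 45.2, the other 7-HCG kidneys 17.1 to 72.3, cisplatin kidneys -64 to -2.63 and controls -82.7 to -28.9. All 10 7-HCG kidneys stood apart from the other 10 along it, whatever their Mt2. Day of preparation or sequencing is not given in the sources used here, so a technical difference between the 7-HCG group and the others was not tested.

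**Figure D2:**
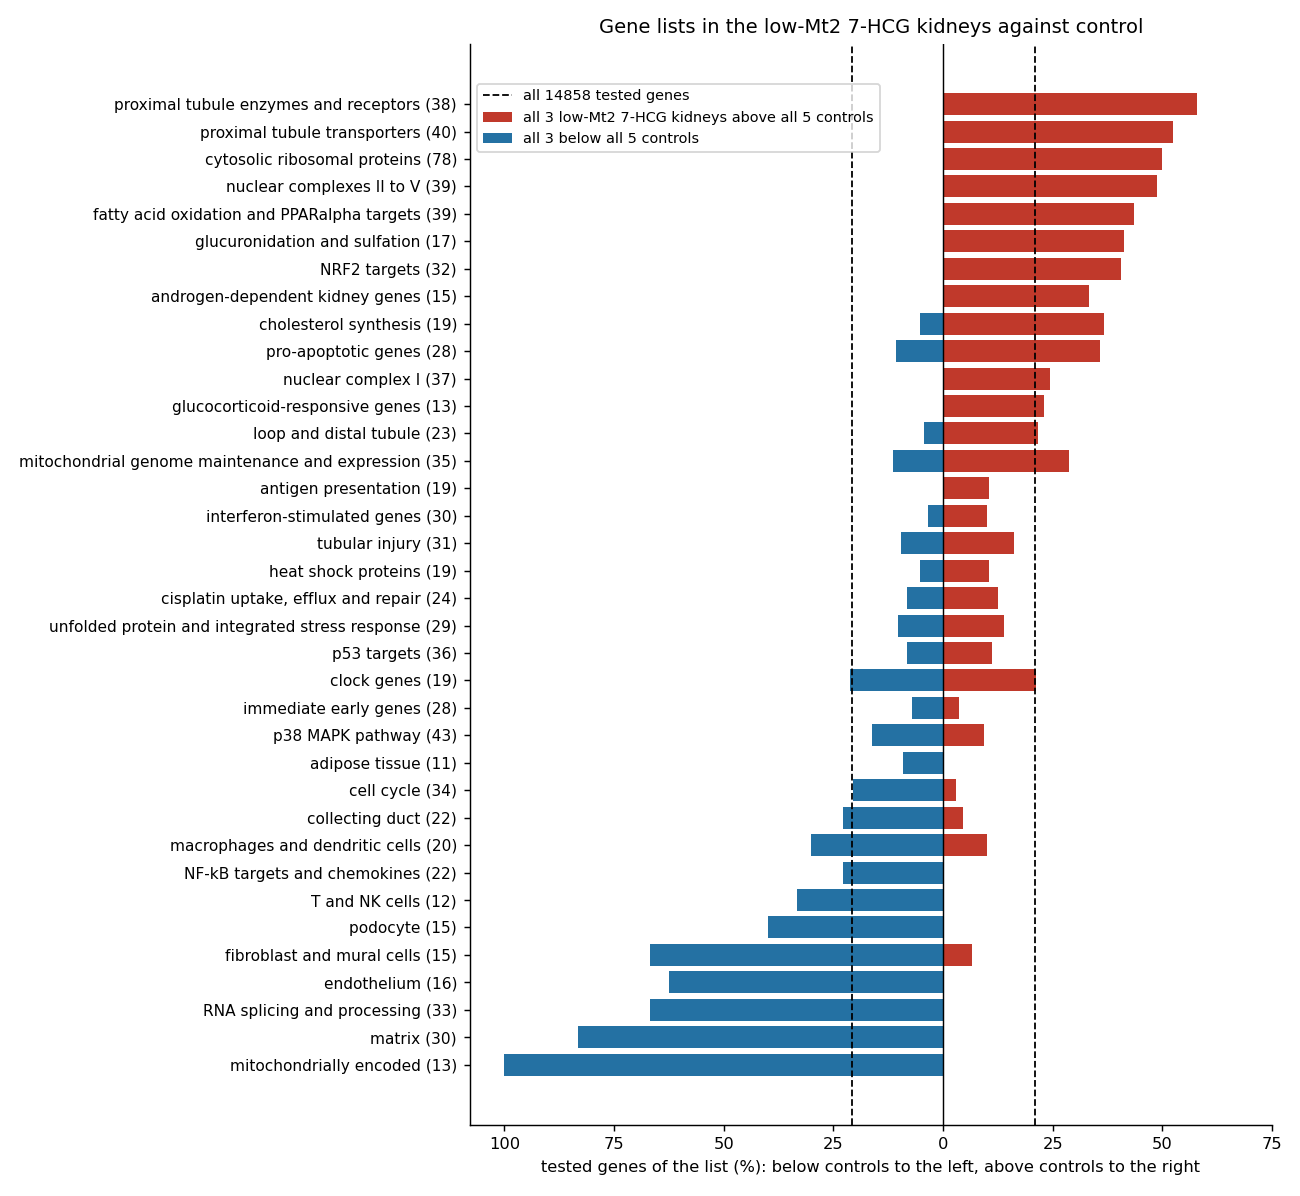
Share of each list's tested genes (number in parentheses, lists of at least 10 shown) for which all 3 low-Mt2 7-HCG kidneys lie above all 5 controls, drawn to the right, or below them, drawn to the left. Dashed lines mark 20.9% and 20.7% of all tested genes; proximal tubule, ribosomal and oxidative lists reach far right of them, and matrix, stromal and mitochondrially encoded lists far left.

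The mRNAs encoded by the mitochondrial genome were lower. All 13 lay below control in the low-Mt2 kidneys, 8 of them by more than 2-fold between the nearest libraries. They made up 7.38%, 5.59% and 8.01% of the counts in the low-Mt2 kidneys, 3.04% to 7.53% in the other 7-HCG kidneys with a median of 5.66%, 16.6% to 77.7% in cisplatin kidneys, and 45.5%, 29.3%, 24.6%, 32.9% and 32.5% in controls. On this measure the 3 low-Mt2 kidneys overlapped the 7 with high Mt2, and all 10 lay under every control. Over the labelled groups the mean share was 6.08% ± 1.5 with 7-HCG (SD, n = 10) and 33.0% ± 7.75 in control (SD, n = 5), a difference of -26.9 percentage points (2-sided exact permutation test over 3003 splits, p = 0.000666, the smallest this design can give).

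Among the subunits of complex I, which oxidizes NADH, the labelled changes ran from -5.59 for mt-Nd4l to -1.61 for mt-Nd6. mt-Nd5 read 3170, 2843 and 4027 CPM in the low-Mt2 kidneys, against 35383, 22110, 12707, 28747 and 29418 CPM in control, and fell by 3.09 on the log2 scale (SE 0.45, adjusted p = 4.16e-05). mt-Nd4 read 5164, 5082 and 6568 CPM against 17018 to 45871 CPM, and fell by 2.63 (SE 0.45, adjusted p = 0.000161). For mt-Co1, which encodes the catalytic subunit of cytochrome c oxidase and was named after its values were seen, the readings were 23292, 18277 and 29749 CPM in the low-Mt2 kidneys and 65815 to 177036 CPM in control. The smallest labelled change among the 13 was that of mt-Nd6 (SE 0.39, adjusted p = 0.00214), named after its values were seen. mt-Nd6 overlaps its neighbour mt-Nd5 by 14 bp, and it read 2428, 3387 and 2646 CPM in the low-Mt2 kidneys against 5589 to 12553 CPM in control.

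A pair of short mitochondrial genes had the widest gaps of the 13. mt-Nd4l, a complex I gene of 297 bp that overlaps mt-Nd4 by 7 bp, was at 3.68, 2.25 and 5.18 CPM in the low-Mt2 kidneys, against 245, 138, 60.5, 186 and 215 CPM in control. The gap of 10.7-fold between the nearest kidneys, on the CPM + 0.5 scale, was the widest of the 12 leading genes below control, and the labelled change was -5.59 ± 0.77 (adjusted p = 3.95e-05). As CPM of the mitochondrial mRNA counts alone, mt-Nd4l gave 60.5, 44.8 and 66.7 in the low-Mt2 kidneys, 50.3 to 77.4 in the other 7-HCG kidneys, 69.4 to 616 in cisplatin kidneys and 344 to 693 in control. Its share of the mitochondrial mRNAs was thus also lower in the low-Mt2 kidneys than in any control. mt-Atp8, an ATP synthase gene of 204 bp that overlaps mt-Atp6 by 43 bp, read 1.36, 0.542 and 0.629 CPM in the low-Mt2 kidneys and 8.16 to 16.6 CPM in control. Reads in such overlaps may be counted for either gene, and short genes depend on how fragments were selected; the part of either in these values was not tested. Among the cisplatin kidneys replicates 9 and 10 held 77.7% and 70.6% mitochondrial mRNA, the highest of all 20 libraries.

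**Figure D3:**
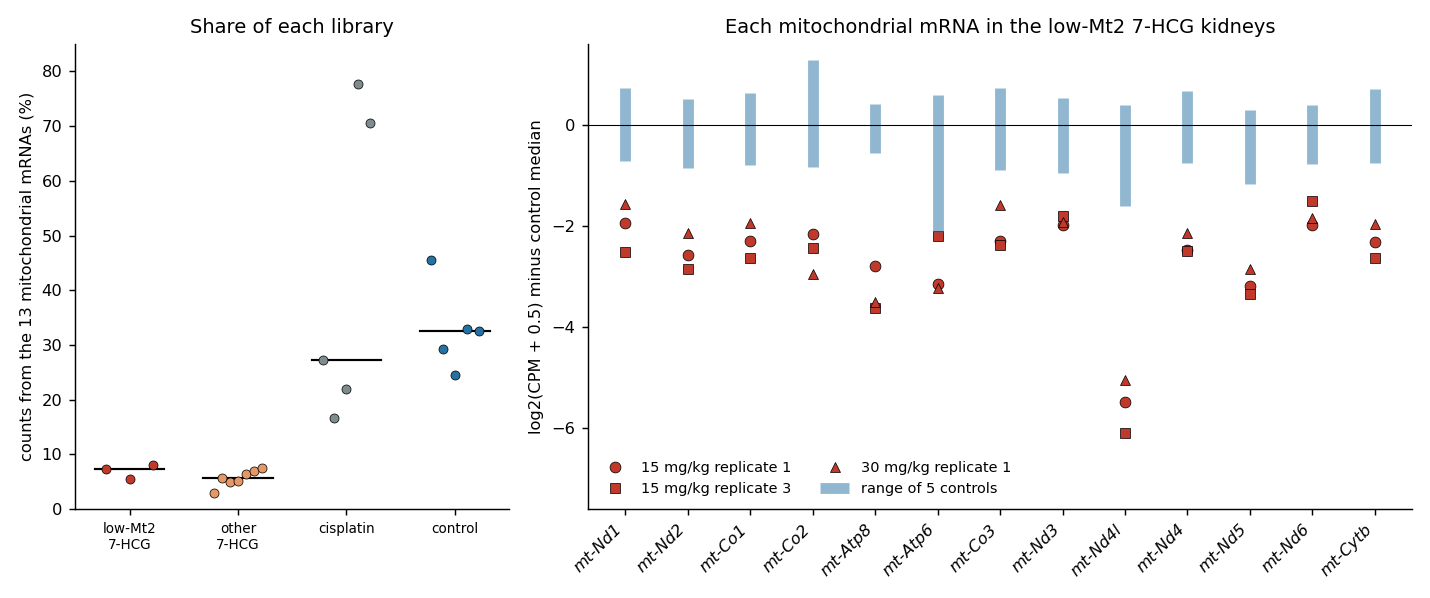
Left, percentage of each library's counts from the 13 mitochondrially encoded mRNAs, by set, with medians as bars. Right, log2(CPM + 0.5) of each of these mRNAs minus the control median in the 3 low-Mt2 7-HCG kidneys (symbols), beside the range of 5 controls (bars); every symbol lies below its bar, and mt-Nd4l furthest.

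Nuclear genes for the same respiratory chain lay on the other side. Of 39 tested genes for complexes II to V, 19 (48.7%) lay above control in the low-Mt2 kidneys and none below, and 26 rose and none fell in the labelled comparison. Their median log2 difference from control was 0.82 in the low-Mt2 kidneys, beside -0.02 over all tested genes. Atp5b, for the catalytic subunit of ATP synthase, stood at 2473, 3286 and 3521 CPM in the low-Mt2 kidneys, against 831, 1011, 777, 1343 and 1032 CPM in control, and rose by 1.44 ± 0.20 (adjusted p = 2.36e-05). All 3 were above every control and above the cisplatin kidneys at 807 to 1223 CPM. Sdhd, for a membrane anchor of succinate dehydrogenase, gave 232, 297 and 393 CPM in the low-Mt2 kidneys and 87.6 to 135 CPM in control. Sdha, for its flavoprotein, gave 468, 496 and 550 CPM against 158 to 270 CPM, and Cox5a, of cytochrome c oxidase, 174, 201 and 218 CPM against 49.6 to 116 CPM. Complex I was less clear, with 9 of 37 genes (24.3%) above control, a share near that of all genes. None lay below, or 2 without controls 2 and 5. Ndufv1, for its NADH-binding subunit, read 391, 459 and 502 CPM in the low-Mt2 kidneys and 127 to 251 CPM in control. Without controls 2 and 5 the genes that rose numbered 14 for complexes II to V and 7 for complex I, against 26 and 18 with all controls. With library totals as the only scaling they numbered 10 and 4, while 26 and 22 lay above control. With the length and GC trend removed the median difference was 0.36 for complexes II to V and 0.08 for complex I, against 0.47 for complex I before, and 11 genes of complex I rose.

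Among 35 nuclear genes that maintain or express the mitochondrial genome, 10 (28.6%) lay above control in the low-Mt2 kidneys and 4 (11.4%) below, while 12 rose and 5 fell in the labelled comparison. The genes that rose numbered 7 without controls 2 and 5, and 4 with library totals as the only scaling, where none fell. Lonp1, for a matrix protease, gave 186, 227 and 203 CPM in the low-Mt2 kidneys and 104 to 135 CPM in control. Twnk, for the mitochondrial DNA helicase, gave 25.8, 27.4 and 26.0 CPM against 12.9 to 19.6 CPM, and rose by 0.93 ± 0.17 (adjusted p = 0.000203). Of 78 cytosolic ribosomal protein genes, 39 (50.0%) lay above control and none below, and 54 rose and none fell. Rpl5 read 455, 526 and 502 CPM in the low-Mt2 kidneys and 173 to 292 CPM in control, and Rps4x 384, 477 and 473 CPM against 164 to 256 CPM. Both have processed copies elsewhere in the genome whose reads may be shared. The 78 genes are short, with a median transcript of 926 bases beside 3046 over all tested genes, and with the length and GC trend removed 18 lay above and 7 below control, and 27 rose. With library totals as the only scaling 20 rose.

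The lists of proximal tubule genes had many members above control. Of 40 transporters, 21 (52.5%) lay above control in the low-Mt2 kidneys and none below, with a median log2 difference of 1.12 in the low-Mt2 kidneys, 0.94 in the other 7-HCG kidneys and 0.04 in cisplatin kidneys. Of 38 enzymes and receptors, 22 (57.9%) lay above and none below, with medians of 1.22, 0.97 and 0.08 in the same order. The controls spread widely. The mean log2 level of the transporter list was 7.44 to 7.83, 6.92 to 7.52 and 5.69 to 6.77 in the same order, and 5.53 to 7.18 in control. Controls 7 and 8, at 7.15 and 7.18, lay within the range of the other 7-HCG kidneys. For enzymes and receptors the levels were 7.78 to 8.15, 7.36 to 7.98 and 6.46 to 7.0, and 5.89 to 7.42 in control. In the labelled comparison 20 transporters and 24 enzymes and receptors rose and none fell. Slc3a1, for the cystine transporter subunit rBAT (chromosome 17, 85028347 to 85064243, GRCm38), stood at 275, 204 and 382 CPM in the low-Mt2 kidneys, against 27.6, 31.7, 11.1, 58.8 and 58.9 CPM in control. The lowest of the 3 was 3.47 times the highest control, and the gene rose by 2.61 ± 0.38 (adjusted p = 4.1e-05). Fbp1, for a gluconeogenic phosphatase, gave 838, 1077 and 1527 CPM in the low-Mt2 kidneys and 90.2 to 421 CPM in control, and Ddc, for aromatic amino acid decarboxylase, 60.5, 52.7 and 48.6 CPM against 9.96 to 27.2 CPM. Kynu, for kynureninase, gave 16.1, 18.2 and 15.1 CPM against 2.21 to 6.35 CPM. These 4 were called, and in each the cisplatin kidneys lay lower than all 3 low-Mt2 kidneys.

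Markers that define the segment were less uniform. Slc34a1, for the phosphate transporter NaPi-IIa, read 3351, 3894 and 6439 CPM in the low-Mt2 kidneys and 1627, 1319, 740, 2714 and 2678 CPM in control. The 3 lay above all controls, but the labelled test did not pass (0.72 ± 0.39, adjusted p = 0.131), the other 7-HCG kidneys being at 1113 to 3155 CPM. Lrp2, for the endocytic receptor megalin, was alike, with 737, 773 and 836 CPM in the low-Mt2 kidneys, 332 to 659 CPM in the other 7-HCG kidneys and 163 to 609 CPM in control (0.44 ± 0.30, adjusted p = 0.227), and was called with the length and GC trend removed. Slc5a2, for the glucose transporter SGLT2, overlapped control at 97.0, 144 and 223 CPM against 22.0 to 104 CPM (1.19 ± 0.55, adjusted p = 0.0804), and was called with library totals as the only scaling, in a fit of control and 7-HCG libraries alone and without control 8. Slc22a6, for the organic anion transporter OAT1, overlapped at 606, 945 and 951 CPM against 161 to 713 CPM, and rose (1.01 ± 0.27, adjusted p = 0.00459), a call lost without controls 2 and 5. In these 4 genes controls 7 and 8 stood highest among the controls and control 5 lowest. Without controls 2 and 5, 21 transporters were still above control and 1 below, while 8 rose and 1 fell in the labelled comparison. For enzymes and receptors 22 were still above and 13 rose. In the loop and distal tubule 5 of 23 genes (21.7%) lay above control, near the share of all genes, and 1 below. Without controls 2 and 5, 2 of them lay below. Umod, for uromodulin of the thick ascending limb, gave 1993, 2937 and 2642 CPM in the low-Mt2 kidneys and 489 to 1556 CPM in control, and Cldn16, for a claudin of that limb, 14.4, 13.1 and 15.0 CPM against 5.34 to 9.27 CPM. In the collecting duct 1 of 22 genes lay above control and 5 (22.7%) below, near the share of all genes, and 4 lay above with library totals as the only scaling. The water channel gene Aqp2 overlapped control at 809, 881 and 822 CPM against 821 to 3004 CPM, and Aqp4, for another, lay below it at 27.3, 10.1 and 10.6 CPM against 41.2 to 123 CPM.

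Fuel and detoxification genes completed the higher set. Of 39 PPARα targets and enzymes that burn fatty acids, 17 (43.6%) lay above control and none below, while 32 rose and 1 fell in the labelled comparison. Without controls 2 and 5, 1 lay below. The median log2 difference from control was 0.92 in the low-Mt2 kidneys, 1.49 in the other 7-HCG kidneys and 0.54 in cisplatin kidneys. Acadvl, which opens the oxidation of long-chain fatty acids, stood at 109, 93.7 and 146 CPM in the low-Mt2 kidneys, against 16.9, 21.2, 21.0, 26.2 and 27.3 CPM in control, and rose by 2.32 ± 0.25 (adjusted p = 3.89e-06). Hadha, for the trifunctional protein, gave 217, 257 and 231 CPM in the low-Mt2 kidneys and 73.5 to 105 CPM in control. Of 32 targets of NRF2, the regulator of antioxidant genes, 13 (40.6%) lay above and none below, and 19 rose and 1 fell. Without controls 2 and 5 the count above was 20, and none fell. The median log2 difference of the NRF2 list from control was 0.52 in the low-Mt2 kidneys, 1.13 in the other 7-HCG kidneys and 0.56 in cisplatin kidneys. Gsta3, for a glutathione transferase, read 118, 112 and 120 CPM in the low-Mt2 kidneys and 19.9 to 30.8 CPM in control, and rose by 2.81 ± 0.31 (adjusted p = 4.76e-06). Fth1, for the ferritin heavy chain, read 7012, 8837 and 8756 CPM against 2285 to 4979 CPM, and Hmox1, for heme oxygenase, 46.3, 34.5 and 38.5 CPM against 11.4 to 30.1 CPM. Gsta2 gave 313, 277 and 255 CPM in the low-Mt2 kidneys, 369 to 1335 CPM in the other 7-HCG kidneys and 62.0 to 169 CPM in control. The Gsta genes are close relatives, and their counts may be shared.

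The compound itself is a glucuronide, the product of the UGT enzymes. Of 17 tested genes for glucuronidation and sulfation, 7 (41.2%) lay above control and none below in the low-Mt2 kidneys, and 6 rose and none fell. Without controls 2 and 5, 1 lay below, and 4 rose and 1 fell. Ugt1a7c stood at 46.1, 23.7 and 90.7 CPM in the low-Mt2 kidneys, against 2.58, 2.23, 1.36, 6.95 and 9.09 CPM in control, and at 1.93 to 11.7 CPM in cisplatin kidneys. It rose by 3.07 ± 0.57 (adjusted p = 0.000368). Ugt1a2 was low, at 0.89, 1.03 and 2.75 CPM in the low-Mt2 kidneys, while control values ran from 0 to 0.121 CPM. The Ugt1a genes share their last exons, so reads cannot be assigned with certainty to 1 of them. Of 19 genes of cholesterol synthesis and uptake, 7 (36.8%) lay above control and 1 below, with 5 that rose and 2 that fell. With controls 2 and 5 left out, 2 lay below, and 2 rose and 3 fell. With library totals as the only scaling 2 rose and 1 fell. Mvk, for mevalonate kinase, gave 18.2, 30.8 and 26.3 CPM in the low-Mt2 kidneys and 6.44 to 9.03 CPM in control, and Sqle, for squalene epoxidase, 77.8, 52.0 and 56.0 CPM against 18.4 to 41.8 CPM. The call of Sqle was lost with library totals as the only scaling and without controls 2 and 5.

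The genes with the widest gap above control, among those that also rose, included genes of these groups and genes for secreted plasma proteins. Fam151a, a gene of the proximal tubule, gave 18.3, 23.7 and 63.9 CPM in the low-Mt2 kidneys and 0.333 to 3.41 CPM in control. Apom, for the apolipoprotein that carries sphingosine 1-phosphate, gave 60.3, 159 and 138 CPM against 5.72 to 13.6 CPM. Bckdha, for the dehydrogenase of branched-chain amino acids, gave 72.8, 75.6 and 123 CPM against 6.8 to 17.3 CPM, and Gnmt, for glycine N-methyltransferase, 32.3, 39.2 and 54.0 CPM against 2.6 to 8.03 CPM. The translation factor gene Eif6 gave 131, 131 and 160 CPM against 22.9 to 38.3 CPM. Cfi, for complement factor I, gave 8.42, 8.0 and 10.7 CPM against 0.665 to 2.61 CPM, and F13b, for the B subunit of coagulation factor XIII, 53.9, 49.8 and 67.9 CPM against 4.42 to 18.0 CPM. Gsta3, Slc3a1, Fgg and Acadvl, described above, were also among them. Of 15 androgen-dependent kidney genes 5 (33.3%) lay above control, beside 20.9% of all genes, and none below. In the labelled comparison 5 rose and none fell. Without controls 2 and 5, 2 rose and 1 fell, and with library totals as the only scaling 3 rose. With the length and GC trend removed 3 rose as well. Among those above were Cyp4b1, with 1249, 1621 and 2934 CPM against 191 to 870 CPM, and Cyp2e1, with 677, 847 and 1598 CPM against 106 to 568 CPM. The call of Cyp4b1 was lost at 15 mg/kg alone and with the replicate number as a block. It was also lost without the 3 low-Mt2 kidneys, and without control 1, control 5 or both controls 2 and 5. Slco1a1, for an organic anion transporter of male kidneys, overlapped control at 44.0, 59.7 and 56.8 CPM against 10.9 to 101 CPM and was not called (adjusted p = 0.519).

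**Figure D4:**
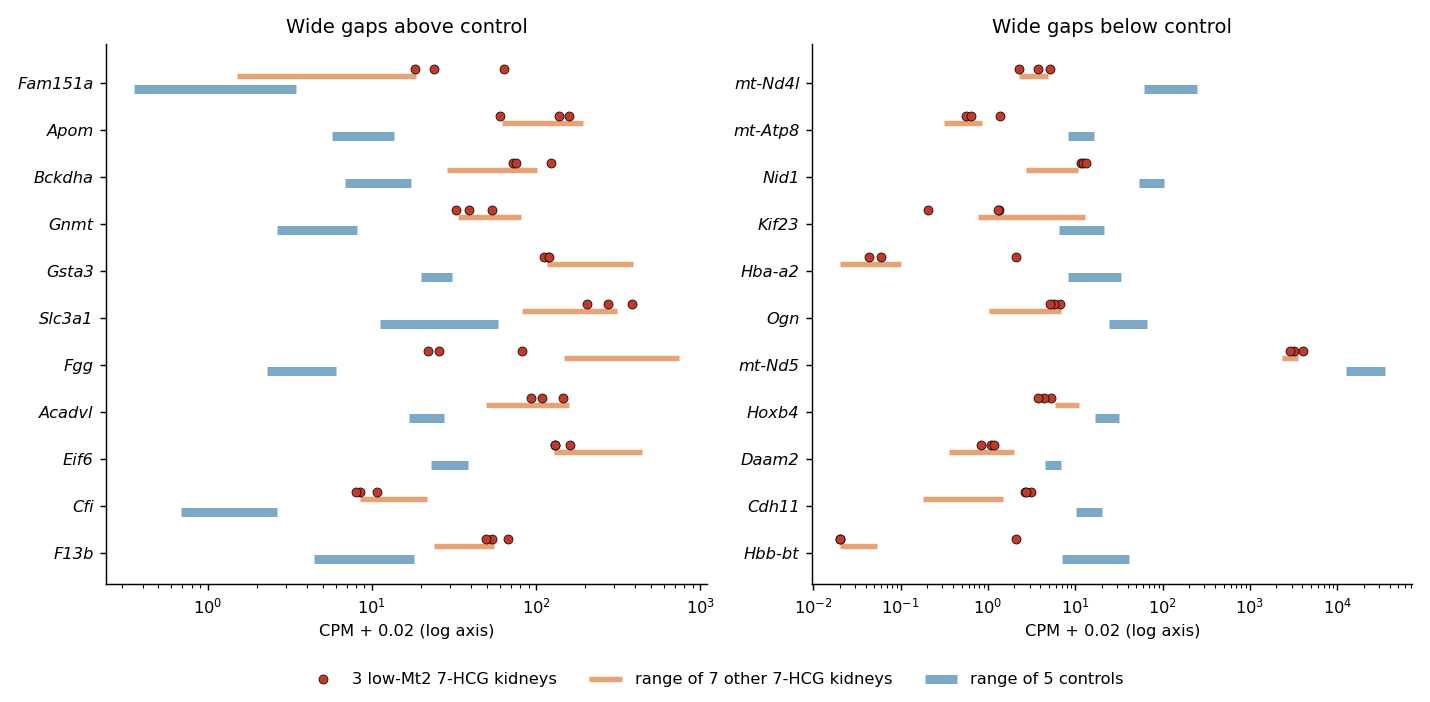
CPM plus 0.02 on log axes for 11 genes with a wide gap above control (left) and 11 with a wide gap below (right), taken from the genes the naming rule gives. Points are the 3 low-Mt2 7-HCG kidneys, thin bars the range of the 7 other 7-HCG kidneys and thick bars the range of 5 controls; for Apom the points lie at 60.3, 159 and 138 CPM, beside 62.1 to 193 CPM in the other 7-HCG kidneys and 5.72 to 13.6 CPM in control.

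Matrix and stromal genes were lower. Of 30 extracellular matrix genes, 25 (83.3%) lay below control in the low-Mt2 kidneys and none above, and 26 fell and none rose. Their mean log2 level was 4.69 to 4.87 in the low-Mt2 kidneys and 3.15 to 4.36 in the other 7-HCG kidneys. It was 4.08 to 7.35 in cisplatin kidneys and 5.73 to 6.62 in control. The upper end in cisplatin kidneys came from replicate 9 alone, and the others stood at 4.08 to 4.93, under every control. The median log2 difference of the matrix list from control was -1.39 in the low-Mt2 kidneys, -2.21 in the other 7-HCG kidneys and -1.41 in cisplatin kidneys. Nid1, for the basement membrane protein nidogen-1, stood at 11.7, 12.4 and 13.2 CPM in the low-Mt2 kidneys, against 104, 84.5, 84.4, 65.9 and 54.4 CPM in control, and fell by 3.29 on the log2 scale (SE 0.70, adjusted p = 0.00102). Col15a1, for a basement membrane collagen, gave 10.8, 10.0 and 9.82 CPM in the low-Mt2 kidneys and 29.7 to 56.3 CPM in control. Tnc, for tenascin-C, gave 6.8, 3.38 and 4.57 CPM against 8.0 to 133 CPM, and Ogn, for the proteoglycan osteoglycin, 6.72, 5.76 and 5.18 CPM against 24.2 to 67.2 CPM. Of 15 fibroblast and mural cell genes, 10 (66.7%) lay below control and 1 (6.67%) above, beside 20.7% and 20.9% of all genes. In the labelled comparison 14 fell and none rose, beside 24.8% and 24.3% of all genes. The median log2 difference of this list from control was -1.0 in the low-Mt2 kidneys, -1.84 in the other 7-HCG kidneys and -1.41 in cisplatin kidneys. Postn, for periostin, gave 1.54, 1.16 and 1.21 CPM in the low-Mt2 kidneys and 4.38 to 44.9 CPM in control. The 1 above was Ren1, for renin, named after its values were seen, with 126, 250 and 198 CPM in the low-Mt2 kidneys and 27.2 to 86.6 CPM in control. Ren1 did not pass the labelled test (0.98 ± 0.46, adjusted p = 0.0824), though it did with library totals as the only scaling and in DESeq2, and C57BL/6 mice carry a single renin gene. Without controls 2 and 5, 25 matrix genes lay below control, and 16 fell in the labelled comparison.

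Most endothelial and some podocyte markers were lower. Of 16 endothelial genes, 10 (62.5%) lay below control in the low-Mt2 kidneys, beside 20.7% of all genes, and none above. In the labelled comparison 14 fell and none rose, beside 24.8% of all genes that fell. Without controls 2 and 5, 8 of them fell. The median log2 difference of this list from control was -0.61 in the low-Mt2 kidneys, -1.46 in the other 7-HCG kidneys and -1.02 in cisplatin kidneys. Tek, for the angiopoietin receptor, stood at 16.4, 13.2 and 12.3 CPM in the low-Mt2 kidneys, 2.56 to 12.0 CPM in the other 7-HCG kidneys and 29.1 to 44.4 CPM in control. Cdh5, for VE-cadherin, gave 17.3, 13.6 and 23.8 CPM in the low-Mt2 kidneys and 29.4 to 102 CPM in control, and Sox17, for an endothelial transcription factor, 10.7, 11.6 and 11.3 CPM against 21.2 to 39.6 CPM. For Tek the low-Mt2 kidneys lay under all controls and above all other 7-HCG kidneys. Of 15 podocyte genes, 6 lay below control, beside 20.7% of all genes, and none above. Among the same 15, 8 fell and none rose, beside 24.8% of all genes that fell. The fallen podocyte genes numbered 5 without controls 2 and 5. The podocyte median log2 difference from control was -0.48 in the low-Mt2 kidneys, -1.39 in the other 7-HCG kidneys and -1.2 in cisplatin kidneys. With the length and GC trend removed that of the low-Mt2 kidneys was -0.07. There 4 podocyte genes lay below and 4 fell, beside 2359 and 3137 of all 14858 genes. With library totals as the only scaling 3 lay below and 1 above. Plce1, for a phospholipase of the filtration barrier, gave 2.21, 3.61 and 2.28 CPM in the low-Mt2 kidneys and 6.38 to 9.2 CPM in control. Tcf21, a transcription factor of podocytes and stroma, gave 9.07, 9.27 and 12.4 CPM against 19.9 to 31.3 CPM. The defining marker Nphs1, for nephrin, overlapped control at 12.0, 19.5 and 23.1 CPM against 8.9 to 25.7 CPM.

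Among the remaining genes with the widest gap below control was Cdh11, for a mesenchymal cadherin, with 3.06, 2.63 and 2.7 CPM in the low-Mt2 kidneys and 10.1 to 20.5 CPM in control. Hoxb4, a homeobox gene, gave 5.2, 4.39 and 3.75 CPM in the low-Mt2 kidneys and 16.8 to 31.9 CPM in control. Daam2, for a formin of the Wnt pathway, gave 0.81, 1.06 and 1.14 CPM against 4.44 to 6.86 CPM. Kif23, for a kinesin of cytokinesis, gave 1.32, 1.29 and 0.187 CPM in the low-Mt2 kidneys, 0.741 to 12.8 CPM in the other 7-HCG kidneys and 6.54 to 21.6 CPM in control. Its labelled change was -1.54 ± 0.57 (adjusted p = 0.0327) and its call was lost under several alternatives, among them library totals as the only scaling and the set without controls 2 and 5. Of 34 cell cycle genes, 7 (20.6%) lay below control, near the share of all genes, and 1 above, while 18 fell and 2 rose. Without controls 2 and 5 the count below was 12, and 1 rose. Mki67, the proliferation marker, read 2.29, 5.08 and 0.723 CPM in the low-Mt2 kidneys and 6.08 to 15.7 CPM in control. The 1 above was Ccnd1, for cyclin D1, named after its values were seen. It stood at 62.7, 68.9 and 79.2 CPM in the low-Mt2 kidneys, 9.04 to 27.2 CPM in the other 7-HCG kidneys and 20.9 to 47.2 CPM in control, so that the 2 sets of 7-HCG kidneys did not overlap. It was not called over both doses (-0.13 ± 0.46, adjusted p = 0.83), and was called lower without the 3 low-Mt2 kidneys.

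Most red cell markers and some immune cell markers were lower. Of 8 red cell genes, 7 (87.5%) lay below control in the low-Mt2 kidneys and none above, and 6 fell and 1 rose. Without controls 2 and 5, 1 lay above. Hba-a1, for α-globin, read 0.435, 28.3 and 0.629 CPM in the low-Mt2 kidneys, 0.16 to 1.05 CPM in the other 7-HCG kidneys, 1.35 to 6.75 CPM in cisplatin kidneys and 111, 304, 214, 177 and 68.0 CPM in control. Hba-a2, its near-identical copy, read 0.0395, 2.06 and 0.0233 CPM against 8.33 to 33.2 CPM in control, and Hbb-bt, for β-globin, 0, 2.09 and 0 CPM against 7.05 to 41.3 CPM. These came from 2, 80 and 1 counts of Hba-a2 and 0, 81 and 0 of Hbb-bt. For both genes 15 mg/kg replicate 1 and 30 mg/kg replicate 1 were thus under the floor of 3 counts, and the size of their gaps is uncertain. Among the 10 7-HCG kidneys, 15 mg/kg replicate 3 was the 1 with more than 1.05 CPM of Hba-a1. Alas2, for the first enzyme of heme synthesis in red cells, gave 0.0593, 0.671 and 0.0233 CPM against 1.69 to 9.09 CPM, the last of the 3 being under that floor. How much blood stayed in the kidneys at removal is not given in the sources used here, and its part in the lower vascular and immune markers was not tested. Of 20 macrophage and dendritic cell genes, 6 (30.0%) lay below control and 2 (10.0%) above. With the length and GC trend removed, 5 lay below and none above. In the labelled comparison 9 fell and 1 rose, or 8 and none without controls 2 and 5. The mean log2 level of the list was 2.77 to 2.88 in the low-Mt2 kidneys and 2.99 to 3.3 in control. It was lower still in the other 7-HCG kidneys, at 1.37 to 2.51, and in cisplatin kidneys, at 1.99 to 2.53. Mrc1, for the mannose receptor, gave 1.62, 1.29 and 0.816 CPM in the low-Mt2 kidneys and 3.44 to 7.72 CPM in control. The 2 above, named after their values were seen, were the complement genes C1qa, with 36.2, 44.4 and 43.3 CPM against 28.6 to 36.2 CPM and no visible gap, and C1qb, with 36.1, 41.0 and 45.8 CPM against 23.3 to 32.3 CPM. Neither passed the labelled test (adjusted p = 0.305 and 0.864), but C1qa was called lower without the 3 low-Mt2 kidneys, without 30 mg/kg replicate 1 and with the length and GC trend removed. T and NK cell genes lay below control in 4 of 12 cases (33.3%) and B cell genes in 3 of 5 (60.0%), beside 20.7% of all genes. In the labelled comparison 11 and 4 fell and none rose. The mean log2 level of the T and NK cell list was 0.35 to 0.44 in the low-Mt2 kidneys and 0.75 to 1.66 in control. Other 7-HCG kidneys, at -0.27 to -0.02, and cisplatin kidneys, at -0.37 to -0.03, lay lower still. Cd79a, a B cell gene, gave 0.198, 0.31 and 0.256 CPM in the low-Mt2 kidneys and 0.416 to 0.996 CPM in control. No neutrophil gene of 5 tested was clear of the controls, and without controls 2 and 5 1 lay above and 1 below. Of 30 interferon-stimulated genes, 3 (10.0%) lay above control and 1 (3.33%) below, shares under those of all genes, and 5 rose and 4 fell. Without controls 2 and 5 none rose and 5 fell. The median log2 difference of this list from control was 0.72 in the low-Mt2 kidneys. Its 1 gene below was the chemokine gene Cxcl9, with 2.71, 1.91 and 3.1 CPM in the low-Mt2 kidneys and 4.57 to 12.4 CPM in control. Fabp4, the marker of adipocytes and capillaries, gave 32.2, 43.7 and 26.2 CPM against 60.1 to 789 CPM, and lost its call without controls 2 and 5.

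RNA processing genes formed another lower group. Of 33 tested, 22 (66.7%) lay below control in the low-Mt2 kidneys and none above, and 21 fell and none rose. Their median log2 difference from control was -0.74 in the low-Mt2 kidneys, -0.50 in the other 7-HCG kidneys and 0.22 in cisplatin kidneys. With the length and GC trend removed that of the low-Mt2 kidneys was -0.42, and 15 fell and 2 rose; with library totals as the only scaling 14 fell. Tra2a, for a splicing activator, stood at 19.4, 13.0 and 10.8 CPM in the low-Mt2 kidneys, against 65.3, 42.0, 42.1, 40.2 and 37.4 CPM in control, and fell by 1.51 on the log2 scale (SE 0.23, adjusted p = 4.85e-05). Hnrnph1, for an RNA-binding protein of splicing, gave 84.8, 51.1 and 28.7 CPM in the low-Mt2 kidneys and 143 to 239 CPM in control. In both genes cisplatin kidneys overlapped control, at 30.1 to 67.0 CPM and 89.3 to 212 CPM.

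The p38 MAPK pathway, a stress kinase cascade that the study names in its title, showed no common direction. Of 43 genes, 4 lay above control in the low-Mt2 kidneys and 7 below, shares under those of all genes, and 8 rose and 6 fell. With library totals as the only scaling 3 lay above and 3 below, and 5 rose and 2 fell; with the length and GC trend removed 7 lay above and 7 below. The fallen genes numbered 3 without controls 2 and 5. Mapk14, for p38α, read 91.6, 93.2 and 101 CPM in the low-Mt2 kidneys and 60.1, 50.5, 54.4, 73.1 and 60.9 CPM in control. It passed the labelled test narrowly (0.49 ± 0.20, adjusted p = 0.0445), a call lost under many alternatives. Mapk13, for p38δ, gave 25.8, 25.6 and 25.6 CPM in the low-Mt2 kidneys and 8.9 to 17.4 CPM in control. Mapkapk2, for a kinase downstream of p38, gave 157, 127 and 184 CPM against 77.4 to 109 CPM, and Mef2c, for a transcription factor downstream of p38, lay below control at 3.93, 3.9 and 2.84 CPM against 8.32 to 10.4 CPM. These are mRNA levels, and phosphorylation was not measured. Of 28 pro-apoptotic genes, 10 (35.7%) lay above control and 3 below, and 12 rose and 1 fell. With library totals as the only scaling 4 rose, and without controls 2 and 5, 6 lay below. Among those above were Endog, for a mitochondrial nuclease, with 59.6, 72.6 and 93.4 CPM against 15.4 to 39.9 CPM, and Bad, for a BCL2 antagonist, with 39.6, 46.3 and 48.6 CPM against 21.1 to 28.8 CPM. Of 24 genes for cisplatin uptake, efflux and repair, 3 (12.5%) lay above control and 2 (8.33%) below, shares under those of all genes. In the labelled comparison 7 rose and 3 fell, or 3 and 1 with library totals as the only scaling. Without controls 2 and 5, 5 lay above and 5 below, and 4 rose and none fell. Both genes named next were among the 3 above. Slc31a1, for the copper transporter CTR1, gave 113, 116 and 121 CPM in the low-Mt2 kidneys and 44.4 to 86.1 CPM in control, and rose, a call lost with library totals as the only scaling. Ggt1, for γ-glutamyl transferase of the brush border, gave 1356, 1827 and 1924 CPM against 353 to 1053 CPM.

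The differences varied with the length of the transcript. The genes were cut into 5 classes of nearly equal size by transcript length. In the shortest class, with a median of 1257 bases, 32.4% lay above control in the low-Mt2 kidneys and 6.72% below. In the longest class, with a median of 6592 bases, 6.49% lay above and 42.4% below. The median log2 difference from control was 0.32 in the shortest and -0.45 in the longest class in the low-Mt2 kidneys, 0.36 and -0.35 in the other 7-HCG kidneys, and 0.05 and -0.10 in cisplatin kidneys. By GC content it was -0.37 in the lowest and 0.17 in the highest class in the low-Mt2 kidneys, and -0.11 and 0.17 in cisplatin kidneys. Single libraries varied in the length trend. Relative to the mean of all 20 libraries, the longest minus the shortest class was -0.12, -0.42 and -0.55 in the low-Mt2 kidneys. It was -1.07 to 0.12 in the other 7-HCG kidneys, -0.02 to 0.51 in cisplatin kidneys and 0.21 to 0.72 in control. The matrix list has long transcripts, with a median of 5690 bases, and the list for complexes II to V short ones, with 838. Proximal tubule transporters have a median of 3484 bases and podocyte genes one of 5159. With the length and GC trend removed, 25 matrix genes lay below control, 22 transporters and 24 enzymes and receptors above, 18 genes of complexes II to V above, 17 RNA processing genes below, and all 13 mitochondrial mRNAs below. RNA integrity per sample is not given in the sources used here, and its part in the trend was not tested.

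**Figure D5:**
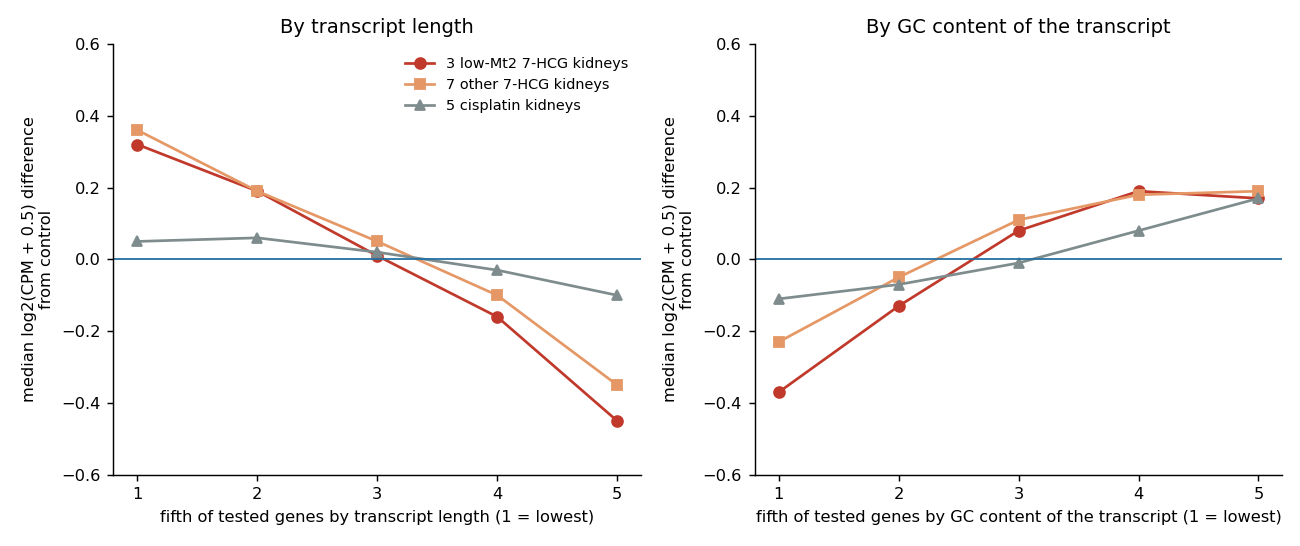
Median log2(CPM + 0.5) difference from control for 5 classes of nearly equal size of the tested genes by transcript length (left) and GC content (right). In the low-Mt2 7-HCG kidneys the median runs from 0.32 in the shortest to -0.45 in the longest class, close to that of the other 7-HCG kidneys. Cisplatin kidneys stay between -0.10 and 0.06 by length and run from -0.11 to 0.17 by GC content.

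The 3 low-Mt2 kidneys differed among themselves in the injury genes. The 15 mg/kg replicate 1 was the highest of the 3 in Havcr1, Lcn2, Krt20, Cdkn1a, Ccng1, Fga, Fgb, Fgg and Clu. The 15 mg/kg replicate 3 was the lowest in all of these but Krt20, which was lowest in 30 mg/kg replicate 1. The 30 mg/kg replicate 1 was the highest of the 3 in Slc34a1, Slc5a2, Slc3a1 and Fbp1, genes of the proximal tubule, and the lowest in Ddc and Kynu, of the same segment. Between the labelled doses, 30 against 15 mg/kg, edgeR's quasi-likelihood test called 0 of 14858 genes after adjustment, with 1066 at an unadjusted p below 0.05.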

How the data were processed

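RNA from 20 kidneys was enriched for poly(A), per the labels' protocols, and the authors deposited whole-number counts per gene beside log2 fold changes, p-values and adjusted p-values of their own comparisons, which were not used. Trimmomatic, HISAT2, StringTie and DESeq2 with mm10/GRCm38 are named in the submitters' processing notes; the counting program and its strand setting were not stated there. Overlapping genes and close copies are therefore uncertain. Library totals ran from 10714532 to 49602115 counts.

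From the deposited counts, genes passing edgeR's filter on low counts (14858 of 25638) were scaled by TMM. They were fitted over all 20 libraries with edgeR 4.0.16 (limma 3.58.1, R 4.3.3), as the mean of both 7-HCG doses minus control. The code was also run on simulated counts with less spread and far fewer changed genes than these data. That run checked the code only and cannot speak for error rates here. DESeq2 1.42.0 and other scalings, filters, doses and left-out libraries were alternatives. Lengths and GC content came from the reference annotation.

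The members and the 40 gene lists were chosen with earlier results of these data known. Named genes are from a fixed panel, up to 4 called and non-overlapping genes per list by smallest p, and the 12 widest gaps in each direction. For these gaps a mean of at least 2 CPM over the low-Mt2 and control libraries was required, which control values alone could meet. Not all of these genes are reported here. Replicates are separate animals; no pair of libraries of a group agreed within sampling noise (chi-square per degree of freedom 27.1 to 1816 over 40 pairs). Floors of 3 counts cover counting error only.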

Additional observations from a re-analysis of the deposited data

Results flagged for a closer look

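In 25 cases 1 kidney of a group of 5 stood far from the other 4, by Dixon's criterion on TMM-scaled CPM, which chance meets in about 1 in 20 groups. The number of groups examined is not given here, so the 25 cannot be set against that rate. No explanation was weighed.

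Among the low-Mt2 7-HCG kidneys, 15 mg/kg replicate 3 stood apart in its group for Fos at 0.129 CPM, Nr1d1 at 30.9 CPM, Hba-a1 at 28.3 CPM, Hba-a2 at 2.06 CPM and Hbb-bt at 2.09 CPM. The 30 mg/kg replicate 1 was high for Sdhd at 393 CPM and Bckdha at 123 CPM, and low for Kif23 at 0.187 CPM, against 5.87 to 12.8 CPM in the other 4 kidneys of its dose, and for Hnrnph1 at 28.7 CPM.

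Among the other 7-HCG kidneys, 15 mg/kg replicate 2 was high for Twnk at 43.2 CPM and low for mt-Nd4 at 2253 CPM, Sdha at 367 CPM, Slc34a1 at 1113 CPM, Fam151a at 1.48 CPM and Bckdha at 28.6 CPM. The 15 mg/kg replicate 7 was low for C1qa at 18.7 CPM and C1qb at 21.4 CPM. The 30 mg/kg replicate 6 was low for Tcf21 at 1.61 CPM and Mrc1 at 0.183 CPM, and replicate 8 was low for Sqle at 34.4 CPM. Replicate 7 had 0.0331 CPM of Hbb-bt, where the other 4 were at 0. That value came from 2 counts, under the floor of 3.

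Among controls, replicate 1 was high for Per1 at 42.7 CPM, Sox17 at 39.6 CPM and Tra2a at 65.3 CPM, and replicate 7 for Lonp1 at 135 CPM.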

How the results depend on the processing

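The 204 genes with a gap over 2-fold between the low-Mt2 kidneys and control became 134 with an Mt2 threshold of 160 CPM, 123 with a pseudocount of 2, 6184 with any gap counted, and 119 with the length and GC trend removed, an alternative chosen after seeing the data. They ranged from 210 to 575 when 1 library was left out, with 575 without 15 mg/kg replicate 1 and 345 without control 7. Leaving out a library can only keep or raise this count, and a higher Mt2 threshold can only keep or lower it. The direction of these changes was therefore fixed in advance. An Mt2 threshold of 40 CPM left no kidney. The 7289 genes called over the labelled groups became 4067 with library totals as the only scaling and 4586 without controls 2 and 5, the second chosen after seeing the data, and 6056 to 7386 when 1 library was left out; the cause was not tested. Replicate numbers did not pair the samples (correlations of -0.364 to 0.162 between same-numbered kidneys), and with the replicate block 6906 genes were called. The difference in mitochondrial share ran from -23.8 to -30.9 percentage points and passed under every alternative run. Of 91 called genes named in the text 82 kept their call under every alternative. Of 15 that were not called 11 gained a call under at least 1 alternative. Uncalled changes turned positive for Ccnd1 (0.03), C1qa (0.10) and C1qb (0.38) at 15 mg/kg alone, for Slco1a1 at 30 mg/kg alone (0.01) and with the length and GC trend removed (0.09). With 1 library left out, C1qb ran from -0.42 to 0.05, positive without control 8 (0.03) or 30 mg/kg replicate 6 (0.05), and Slco1a1 from -0.61 to 0.03, positive without control 8. Only 3 low-Mt2 kidneys limit the precision of every value.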
